A study of Drosophila melanogaster with 3 samples.

Results

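LPLC2 neurons were compared with LC4 neurons of the Drosophila melanogaster optic lobe, sorted from developing brains at 48 h after puparium formation (APF). The 1442 LPLC2 and 385 LC4 cells were those that the deposited annotation gave these names in the 48 h APF library, 1827 of the 2595 annotated cells of that library and of 6003 in the whole series. UMIs were summed over the cells of a type within each genotype, which gave 12 sums, 6 for LPLC2 and 6 for LC4.

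LPLC2 and LC4 are visual projection neurons (VPNs), columnar cells whose dendrites cover the visual field and whose axons leave the optic lobe and end in a type-specific glomerulus of the central brain. Both respond to looming objects and both synapse directly onto the giant fibre (GF), the descending neuron that triggers the escape take-off. LC4 dendrites lie in the lobula, whereas LPLC2 dendrites extend into the lobula and the layers of the lobula plate. At 48 h APF, VPN processes are choosing partners and beginning to form synapses, a step in which cell surface proteins of the immunoglobulin superfamily, among them the Dpr and DIP proteins and the Beat and Side proteins, take part by binding each other in fixed combinations.

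All animals came from virgin females with a split-GAL4 driver, in which separate enhancer fragments drive the activation and DNA-binding domains of GAL4, so that only cells with both domains express the reporter. LPLC2 animals carried R19G02-p65.AD and R75G12-GAL4.DBD, and LC4 animals carried R47H03-p65.AD and 72E01-GAL4.DBD. Both carried the nuclear reporter UAS-His2A-GFP, and each animal had a chromosome 3 from 1 of 6 inbred wild-type strains, DGRP 399, 535, 555, 730, 799 and 805 (DGRP, Drosophila Genetic Reference Panel). The 6 strains were the same in both types. Strains 399, 535 and 555 were staged in an earlier window and were older at dissection than strains 730, 799 and 805. The study states that flies of both sexes were used. GFP-positive cells of all crosses were sorted and loaded together on a single 10x Chromium lane, and each cell was assigned to its cross by its variants. Each cross was therefore a pool of animals. The sort selected cells by the driver and not by their synapses, so no cell was linked to a position in the visual field.

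The LPLC2 sums held 119 to 364 cells and 2210751 to 6256891 UMIs per cross, and the LC4 sums 12 to 121 cells and 351647 to 2685838 UMIs. Levels are given as UMIs per 10000 UMIs of the sum, as mean ± SD over 6 crosses, and where a level is set against another the first is that of LPLC2. LPLC2 cells were the shallower, with a median of 18379 ± 1526 UMIs per cell against 26391 ± 3971 in LC4 (lower in 6 of 6 strains, two-sided exact permutation p = 0.00216, the smallest that 6 against 6 can give). Thinned to 10000 UMIs, a cell showed 2333 ± 26.9 genes in LPLC2 and 2302 ± 16.4 in LC4 (exact permutation p = 0.0455). This difference did not pass an exact sign-flip test within strains (p = 0.0625). The share of mitochondrial UMIs was 3.11% ± 0.247 in LPLC2 and 3.0% ± 0.113 in LC4 (exact permutation p = 0.323).

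Among the LC4 crosses, DGRP 399 and DGRP 555 stood apart. They held 14 and 12 cells, the fewest of the 12 sums, had the highest median UMIs per cell of the LC4 crosses (30143 and 30921), and carried 0.127 and 0.114 UMIs per 10000 of the male-specific transcripts roX1 and roX2, against 14.2 to 22.3 in the other 4 LC4 crosses. None of their cells had 3 or more roX1 UMIs. DGRP 399 also had the highest LC4 levels of the LPLC2 genes Lim1 (0.305) and Sox102F (0.229). The profiles of both crosses still followed their label: over the tested genes each correlated with every other LC4 cross at a Pearson r of 0.964 or above and with no LPLC2 cross above 0.899 (a correlation over genes, so not one of replicates). The values below include both crosses, and for the genes described most closely the log2 fold change without them is added. Both belong to the 3 older strains. Age therefore cannot be told apart from cell number and roX level where older and younger LC4 crosses are set against each other.

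The type names fitted the transcription factors that the annotation rests on, which are given as a description with no test. LC4 cells had kn, which encodes the COE factor Knot, at 11.5 ± 2.41 UMIs per 10000, lov, a BTB-domain factor, at 2.51 ± 0.666, and the LIM-homeodomain gene Lim3 at 1.71 ± 0.226. The LPLC2 levels of these genes were 0.0360 ± 0.0113, 0.00752 ± 0.00637 and 0.00585 ± 0.00241. LPLC2 cells had Lim1 at 9.19 ± 0.588, the SOX-family gene Sox102F at 7.64 ± 0.451, and the spalt genes salm and salr at 3.34 ± 0.355 and 4.95 ± 0.267, where LC4 had 0.105 ± 0.109, 0.111 ± 0.0588, 0.0608 ± 0.0647 and 0.0835 ± 0.0890. None of these 7 genes had crosses that overlapped between the types. Lim1, Sox102F, salm and salr are markers that LPLC2 shares with LPLC1, so they set it apart from LC4 only. The POU factor gene acj6 stood at 14.3 ± 0.672 against 8.0 ± 0.639, and fkh at 3.67 ± 0.376 against 3.38 ± 1.0. The ecdysone-induced gene br and the Islet gene tup, used to mark the related type LPLC1, were both present in LC4, br at 32.8 ± 2.55 and tup at 0.507 ± 0.0715, and near absent from LPLC2, at 0.269 ± 0.0325 and 0.0111 ± 0.00398.

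Of 17824 genes in the table, 6216 had enough counts to be tested, and 3540 of them differed between LPLC2 and LC4 at an adjusted p under 0.05 (56.9%). The test was edgeR's quasi-likelihood test on the sums, with Benjamini-Hochberg adjustment over all tested genes, and its log2 fold change (log2FC) is positive for genes higher in LPLC2. These calls split almost evenly, with 1763 genes higher in LPLC2 (28.4% of those tested) and 1777 higher in LC4 (28.6%). Large differences were fewer. A called change of 2-fold or more was seen in 970 genes (15.6%), 531 of them higher in LPLC2 and 439 in LC4. In 2052 genes (33%) the 6 LPLC2 crosses did not overlap the 6 LC4 crosses. At 8-fold or more there were 94 genes higher in LPLC2 and 114 higher in LC4, and at 64-fold or more 13 and 33. Leaving out LC4 crosses 399 and 555 gave 3660 calls among 6680 tested genes, 3334 of them also called in the same direction with all crosses. Because the cells were named by clustering on the same counts, the p-values of genes that shaped the clusters are not independent of the naming.

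**Figure D1:**
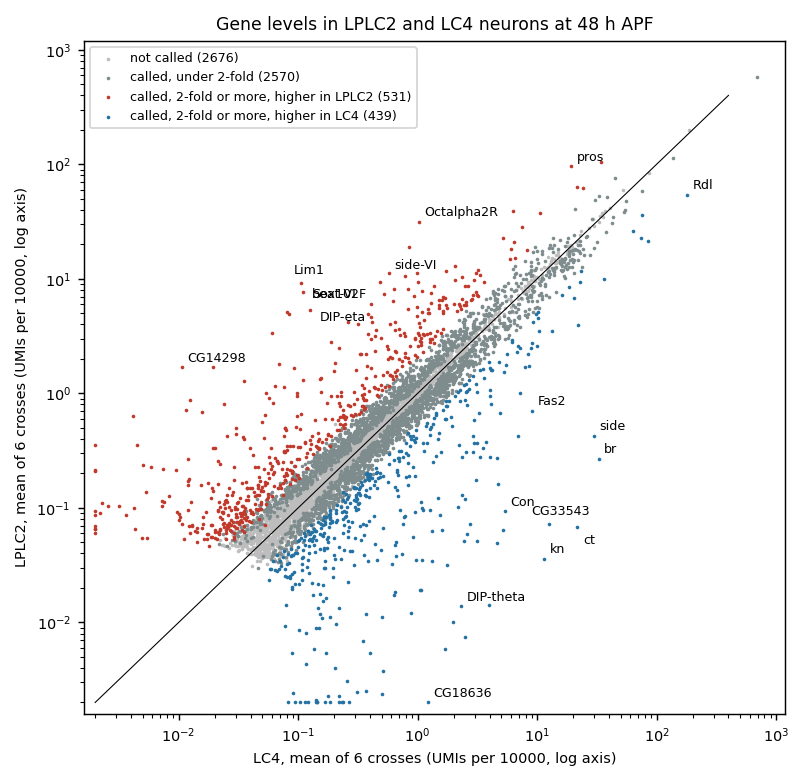
Mean level of each of the 6216 tested genes in LC4 (x axis) and LPLC2 (y axis) at 48 h APF, in UMIs per 10000 on log axes, with means under 0.002 drawn at 0.002 and a line at equal levels. Most points lie near the line, while 531 genes (red) and 439 genes (blue) were called with 2-fold or more, and kn, ct, side and br lie far on the LC4 side and Lim1, Sox102F, DIP-eta and Octalpha2R on the LPLC2 side.

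The genes that separated the types most were a mix of transcription factors, cell surface genes and genes of unknown role. Besides kn, lov, Lim3 and br, the highest log2 fold changes towards LC4 belonged to ct, the homeobox gene cut, at 0.0676 ± 0.0209 against 21.7 ± 1.92 UMIs per 10000 (log2FC -8.42 ± 0.14, adjusted p = 2.44e-18). They also included ap, the LIM-homeodomain gene apterous, at 0.0101 ± 0.00292 against 1.97 ± 0.374 (log2FC -7.57 ± 0.17, adjusted p = 2.43e-16). CG33543, an immunoglobulin-domain gene, stood between 11.9 and 13.4 (median 12.6) in the 6 LC4 crosses and between 0.0554 and 0.0950 (median 0.0723) in the 6 LPLC2 crosses, so that the groups were far apart and each was narrow (log2FC -7.50 ± 0.11, adjusted p = 3.70e-19). CG18636 had 5 UMIs in all LPLC2 cells together and 897 in LC4, a mean level of 1.21 ± 0.549 in LC4. The non-coding lncRNA:CR45223 and CG13579 stood at 3.92 ± 1.51 and 4.62 ± 0.319 in LC4 and at 0.0142 ± 0.00716 and 0.0496 ± 0.0119 in LPLC2. DIP-theta and DIP-kappa complete the 12 and are described with their family.

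Towards LPLC2, the largest differences besides Lim1, Sox102F, salr and salm were in CG14298 (1.69 ± 0.142 against 0.0106 ± 0.0139), CG14459 (1.69 ± 0.160 against 0.0193 ± 0.0107) and CG12836 (5.14 ± 0.596 against 0.0812 ± 0.0248), which are given by name only. Without LC4 cross 805 the log2 fold change of CG14298 was 7.55, against 6.87 with all crosses. CG31760 stood at 1.28 ± 0.514 against 0.0352 ± 0.0242 and Magi, a membrane-associated scaffold gene, at 1.81 ± 0.201 against 0.0686 ± 0.0278. A pair of aminergic receptor genes, Octalpha2R and Dop1R2, and DIP-eta of the DIP family completed the 12. Octalpha2R, an octopamine receptor gene, was between 25.9 and 39.1 (median 31.8) in the LPLC2 crosses and between 0.695 and 1.27 (median 1.08) in the LC4 crosses, 31.1-fold apart in the fit (log2FC 4.96 ± 0.15, adjusted p = 1.31e-14; 5.02 without LC4 crosses 399 and 555).

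The Dpr genes, whose proteins carry immunoglobulin domains and bind DIP proteins on partner cells, were nearly all detected and nearly all differed. All 21 were tested, 8 were called higher in LPLC2, 9 higher in LC4 and 4 were not called. The 81.0% called compares with 56.9% of all tested genes, and the list's median log2 fold change was 0.01, against 0.00 over all genes, so the differences ran both ways. In summed level the family was close between the types, at 51.5 ± 0.76 UMIs per 10000 in LPLC2 and 59.0 ± 3.15 in LC4.

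Among the Dpr genes higher in LPLC2, dpr13, whose product binds DIP-epsilon, was between 5.29 and 7.41 (median 7.05) in LPLC2 and between 1.17 and 2.41 (median 1.62) in LC4. The groups did not overlap, the lowest LPLC2 cross and the highest LC4 cross both being DGRP 399 (log2FC 2.05 ± 0.15, adjusted p = 2.57e-09; 2.21 without LC4 crosses 399 and 555). dpr17 was between 1.79 and 3.02 (median 2.26) in LPLC2 and between 0.230 and 0.838 (median 0.318) in LC4 (log2FC 2.73 ± 0.24, adjusted p = 2.96e-08). In LPLC2 its lowest cross was DGRP 730 and its highest DGRP 555, and all 3 older crosses lay above all 3 younger crosses. dpr16 behaved alike in size, at 3.66 ± 0.548 against 0.704 ± 0.200 (log2FC 2.43 ± 0.14, adjusted p = 1.47e-10). dpr9 stood at 9.81 ± 1.21 against 2.07 ± 0.370 (log2FC 2.17 ± 0.10, adjusted p = 6.13e-12). dpr5 was low in both types but higher in LPLC2 (0.446 ± 0.156 against 0.0301 ± 0.0154). dpr11, dpr20 and dpr21 differed by 2.08-fold, 1.72-fold and 1.62-fold.

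The Dpr genes higher in LC4 were dpr1, dpr2, dpr3, dpr6, dpr8, dpr10, dpr12, dpr15 and dpr18. dpr1 was between 18.4 and 26.4 (median 22) in the LC4 crosses and between 3.61 and 4.42 (median 3.90) in the LPLC2 crosses (log2FC -2.54 ± 0.08, adjusted p = 1.84e-14). dpr2 was the most one-sided by fold, at 0.129 ± 0.0296 against 2.34 ± 0.199 (log2FC -4.21 ± 0.13, adjusted p = 1.44e-14). It was followed by dpr8 at 0.280 ± 0.101 against 3.36 ± 0.486 (log2FC -3.59 ± 0.18, adjusted p = 8.56e-12). dpr6 and dpr10, whose products bind DIP-alpha, stood at 0.0998 ± 0.0186 against 1.08 ± 0.284 and 1.06 ± 0.228 against 4.07 ± 1.09. dpr12, whose product binds DIP-delta, stood at 0.311 ± 0.0502 against 2.91 ± 0.147 (log2FC -3.26 ± 0.09, adjusted p = 6.14e-15). dpr3 stood at 0.113 ± 0.0468 against 1.07 ± 0.185 (log2FC -3.24 ± 0.20, adjusted p = 1.65e-10). The members that did not pass the test were dpr4 (1.77 ± 0.135 against 1.68 ± 0.167), dpr7 (1.55 ± 0.0771 against 1.63 ± 0.232), dpr14 (4.18 ± 0.170 against 3.69 ± 0.191) and dpr19 (1.30 ± 0.0478 against 1.14 ± 0.0796). Of these, dpr7 and dpr14 were each called in 6 of 23 alternative fits.

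The DIP genes, which encode the Dpr-binding partners, were fewer and more nearly exclusive. Of 11 such genes, 9 were tested. Among these 3 were called higher in LPLC2 (33.3%, against 28.4% over all genes), 4 higher in LC4 (44.4%, against 28.6%) and 2 were not called (median log2FC 0.47). DIP-eta was the family's main LPLC2 member, between 4.80 and 6.42 (median 5.27) in the LPLC2 crosses and between 0.0737 and 0.254 (median 0.107) in the LC4 crosses (log2FC 5.53 ± 0.14, adjusted p = 1.73e-15). DIP-theta had the opposite pattern, between 1.69 and 3.27 (median 2.25) in LC4 and between 0.00452 and 0.0302 (median 0.0121) in LPLC2 (log2FC -7.25 ± 0.23, adjusted p = 1.78e-14). These genes are neighbours on chromosome arm 2L, both on the minus strand. DIP-eta lies at 2L:5601723-5617946 and DIP-theta at 2L:5626291-5658560 (dm6 coordinates of the whole genes, exons and introns included), 8.34 kb apart. DIP-kappa and DIP-beta were also LC4 genes. DIP-kappa stood at 0.0636 ± 0.00722 against 5.18 ± 1.23 (log2FC -6.43 ± 0.16, adjusted p = 6.34e-16) and DIP-beta at 0.0518 ± 0.0193 against 3.15 ± 0.546 (log2FC -6.03 ± 0.18, adjusted p = 1.24e-14). DIP-kappa was lower in the 3 older LC4 crosses, where it lay between 3.88 and 4.27, than in the 3 younger, between 5.76 and 6.76. The older LC4 crosses include DGRP 399 and 555, with 14 and 12 cells, so age cannot be told apart from what else sets these crosses off.

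The remaining DIP genes were scarce at this stage. DIP-gamma and DIP-delta passed the test at levels of 0.112 ± 0.0404 against 0.0216 ± 0.0273 and 0.0153 ± 0.00784 against 0.161 ± 0.0897. DIP-epsilon, the Dpr13 partner gene, stood at 0.113 ± 0.0340 against 0.0559 ± 0.0314 (log2FC 0.87 ± 0.30, adjusted p = 0.0189), and this call was lost in 3 alternative fits. Its log2 fold change was 0.77 without LC4 cross 799 (adjusted p = 0.0641), 0.63 among cells with no roX1 or roX2 UMI (adjusted p = 0.203) and 0.25 in the younger crosses alone (adjusted p = 0.465). DIP-alpha (0.125 ± 0.0307 against 0.103 ± 0.0599) and DIP-lambda (0.0942 ± 0.0159 against 0.0614 ± 0.0185) were not called. With strain as a block, DIP-alpha passed (adjusted p = 0.0456). Of 22 alternative fits, DIP-alpha was called in 9 and DIP-lambda in 4.

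The same split was seen cell by cell. Among cells thinned to 10000 UMIs, which left out 202 LPLC2 and 40 LC4 cells that were shallower, DIP-theta had a UMI in 80.9% of 345 LC4 cells and 1.13% of 1240 LPLC2 cells, and DIP-eta in 8.12% and 98.6%. Before thinning the shares were 92.7% and 2.22% for DIP-theta and 17.9% and 99.2% for DIP-eta, in LC4 and LPLC2. For comparison, kn had a UMI in 3.47% of thinned LPLC2 cells and Lim1 in 5.22% of thinned LC4 cells, types that should lack these genes, with median depths before thinning of 18114 UMIs in LPLC2 and 23658 in LC4. These marker genes were more abundant in their own type than the DIP genes were. lov and Lim3, whose LC4 levels of 2.51 ± 0.666 and 1.71 ± 0.226 were nearer to that of DIP-theta, had a UMI in 0.726% and 0.645% of thinned LPLC2 cells. DIP-theta in LPLC2 thus lay below kn and above lov and Lim3, in 14 cells against 43, 9 and 8 of 1240. DIP-eta in LC4 lay above Lim1, in 28 cells against 18 of 345. None of these differences between genes was tested. dpr13 differed in level more than in the share of cells, with a UMI in 85.2% of thinned LPLC2 cells and 73.6% of LC4 cells (90.1% and 91.2% before thinning).

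**Figure D2:**
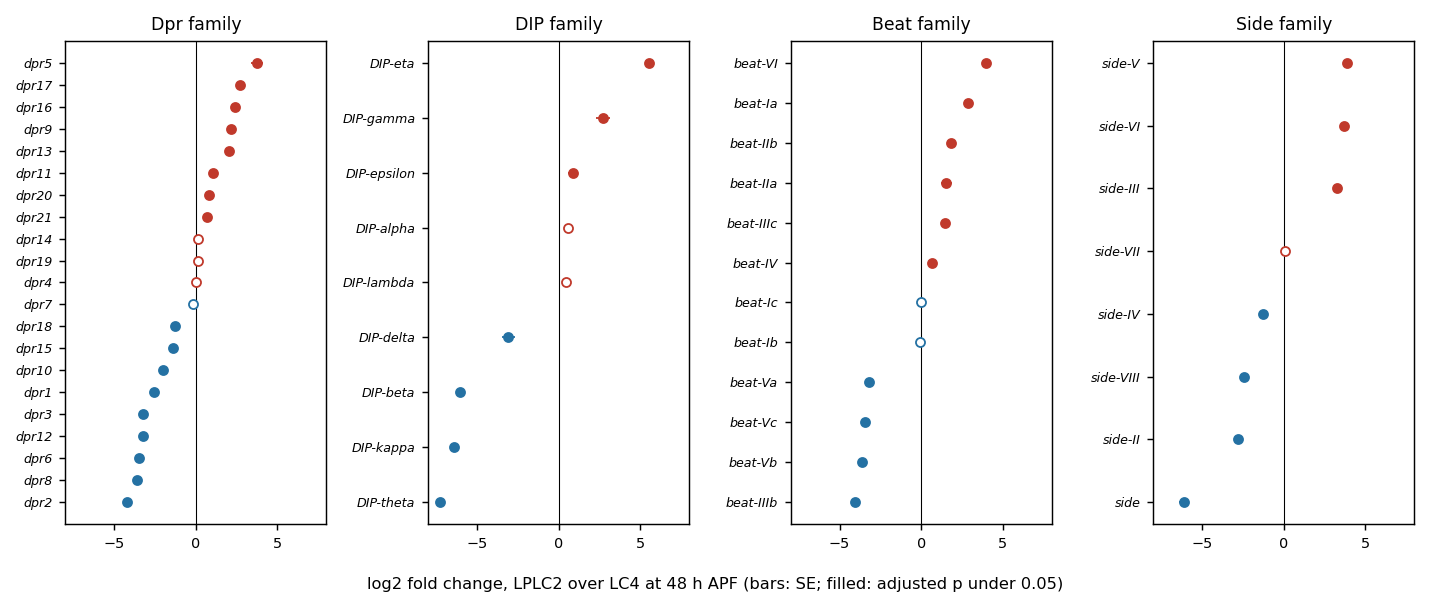
Log2 fold change of LPLC2 over LC4 at 48 h APF (x axis, bars SE) for the tested members of the Dpr, DIP, Beat and Side families, filled where the adjusted p was under 0.05, red to the right for higher in LPLC2 and blue to the left for higher in LC4. In every family members lie on both sides, with DIP-theta at -7.25, DIP-kappa at -6.43 and side at -6.13 the farthest to the left and DIP-eta at 5.53 the farthest to the right.

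The Beat genes and the Side genes, which encode another set of immunoglobulin proteins that bind each other across cells, were split between the types in the same way. Of 12 tested Beat genes 6 were higher in LPLC2 (50%, against 28.4% over all genes), 4 higher in LC4 and 2 not called (median log2FC 0.32). At 33.3%, the LC4 share of Beat genes was near the 28.6% over all genes. Of 8 Side genes 3 were higher in LPLC2 (37.5%, against 28.4%), 4 higher in LC4 (50%, against 28.6%) and 1 not called (median -0.62). beat-VI, whose product binds Side-II, was between 6.57 and 8.05 (median 7.43) in the LPLC2 crosses and between 0.324 and 1.07 (median 0.432) in the LC4 crosses, the highest of the latter being DGRP 399 (log2FC 3.97 ± 0.17, adjusted p = 1.58e-12; 4.14 without LC4 crosses 399 and 555). side-II ran the other way, between 2.54 and 3.31 (median 2.92) in LC4 and between 0.308 and 0.675 (median 0.379) in LPLC2 (log2FC -2.83 ± 0.17, adjusted p = 1.75e-10; -2.90 without those crosses). These partner genes were thus each higher in the type where the other was low. Partner genes of the Dpr and DIP families did not all run this way. dpr13 and DIP-epsilon were both called higher in LPLC2, the latter not in every fit, as were dpr17 and its partner gene DIP-gamma. dpr12 and DIP-delta were both called higher in LC4.

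A second set with opposed levels was formed by side-VI and the beat-V genes, whose products are known to bind. side-VI was between 9.49 and 11.3 (median 10.8) in LPLC2 and between 0.626 and 0.927 (median 0.781) in LC4 (log2FC 3.69 ± 0.08, adjusted p = 2.66e-16). beat-Va, beat-Vb and beat-Vc, which lie on chromosome arm 3R with 57.3 kb between beat-Vc and beat-Va and 67.6 kb between beat-Va and beat-Vb, were all higher in LC4. beat-Va stood at 0.368 ± 0.0573 against 3.14 ± 0.644 (log2FC -3.17 ± 0.13, adjusted p = 4.37e-13). beat-Vb stood at 0.122 ± 0.0261 against 1.47 ± 0.0710 (log2FC -3.63 ± 0.11, adjusted p = 1.37e-14) and beat-Vc at 0.332 ± 0.0746 against 3.55 ± 0.299 (log2FC -3.46 ± 0.12, adjusted p = 7.24e-14). In none of these genes did the LPLC2 and LC4 crosses overlap.

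side, the founding member and the muscle cue for motor axons, was between 24.1 and 35.1 (median 30.1) in the LC4 crosses and between 0.209 and 0.844 (median 0.391) in the LPLC2 crosses (log2FC -6.13 ± 0.27, adjusted p = 1.58e-12). Its LC4 level was between 24.1 and 27.8 in the 3 older crosses, which include the small crosses DGRP 399 and 555, and between 32.4 and 35.1 in the 3 younger. Of the genes of its receptor group, beat-Ia was low and higher in LPLC2 (0.289 ± 0.0584 against 0.0421 ± 0.0206, log2FC 2.87 ± 0.24, adjusted p = 1.73e-08). beat-Ib (2.09 ± 0.217 against 2.16 ± 0.285) and beat-Ic (1.49 ± 0.178 against 1.57 ± 0.468) were not called. Other LPLC2 members were side-III (9.34 ± 1.22 against 1.01 ± 0.440), side-V (4.64 ± 0.400 against 0.404 ± 0.286), beat-IIa (1.41 ± 0.186 against 0.606 ± 0.429), beat-IIb (0.960 ± 0.0878 against 0.344 ± 0.200), beat-IIIc (62.8 ± 5.64 against 21.7 ± 2.40) and beat-IV (4.71 ± 0.416 against 2.74 ± 0.692). Other LC4 members were side-IV (0.271 ± 0.0804 against 0.694 ± 0.223), side-VIII (0.583 ± 0.0952 against 2.99 ± 0.594) and beat-IIIb (0.427 ± 0.116 against 6.92 ± 0.392, log2FC -4.06 ± 0.15, adjusted p = 2.20e-13). side-VII stood at 0.863 ± 0.0735 against 0.811 ± 0.0538 and was not called.

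**Figure D3:**
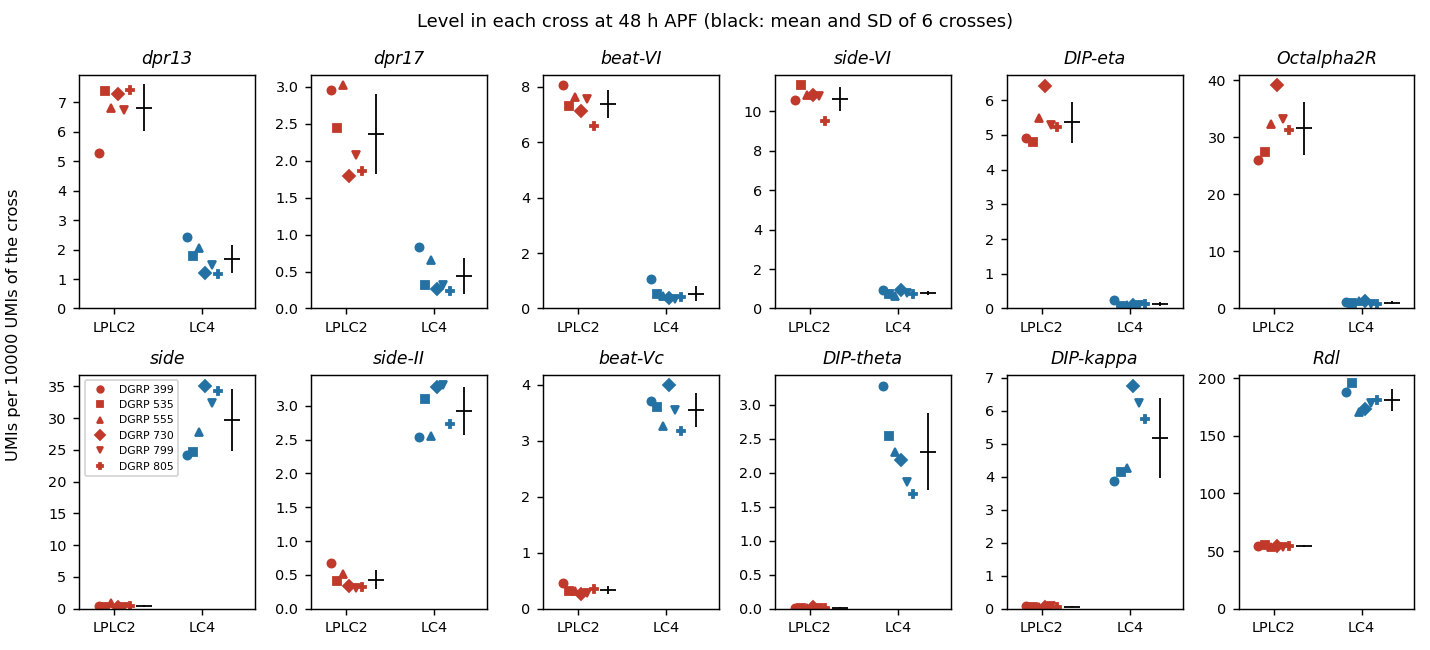
Level of 12 genes in each cross at 48 h APF (y axis, UMIs per 10000 UMIs of the cross; LPLC2 red, LC4 blue, marker shape by DGRP strain), with mean and SD of the 6 crosses in black. The types do not overlap in any of the 12 genes. dpr13 in LC4 reaches 2.41 in DGRP 399, below the lowest LPLC2 cross at 5.29, and Rdl lies between 53.2 and 55.4 in LPLC2 and between 171 and 196 in LC4.

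The other immunoglobulin adhesion genes were mostly called as well, 10 of 27 higher in LPLC2 and 13 higher in LC4 (median log2FC -0.19). Those shares were 37% and 48.1%, against 28.4% and 28.6% over all genes. Fas2, the NCAM homologue, was between 7.28 and 11.5 (median 8.57) in LC4 and between 0.581 and 0.810 (median 0.712) in LPLC2 (log2FC -3.73 ± 0.12, adjusted p = 1.79e-14). fipi (0.0122 ± 0.00600 against 0.885 ± 0.127, log2FC -6.27 ± 0.18, adjusted p = 5.60e-15) and bdl (0.0193 ± 0.0103 against 1.06 ± 0.189, log2FC -5.67 ± 0.20, adjusted p = 7.05e-14) were near absent from LPLC2. tutl, a partner of bdl, was higher in LC4 from a high level in both (9.93 ± 0.461 against 36.4 ± 4.04, log2FC -1.92 ± 0.08, adjusted p = 9.66e-13). In the opposite direction stood hbs, a nephrin-family gene (3.31 ± 0.381 against 0.381 ± 0.0684, log2FC 3.09 ± 0.12, adjusted p = 2.00e-13), and plum (7.13 ± 1.62 against 0.938 ± 0.120, log2FC 2.88 ± 0.14, adjusted p = 6.25e-12). The Dscam genes were divided, Dscam3 at 5.95 ± 0.605 against 1.52 ± 0.258 and Dscam4 at 2.22 ± 0.187 against 8.46 ± 1.20. kirre (4.64 ± 0.270 against 4.84 ± 0.605), sns (1.02 ± 0.0623 against 1.18 ± 0.184), sdk (4.92 ± 0.346 against 5.26 ± 1.26) and the receptor phosphatase gene Lar (3.65 ± 0.0991 against 3.89 ± 0.479) were not called. sns passed with strain as a block (adjusted p = 0.0187), and Lar was called in 5 of 23 alternative fits. tei, an immunoglobulin gene, stood at 7.02 ± 1.06 against 3.23 ± 0.854 (log2FC 1.03 ± 0.14, adjusted p = 5.00e-06).

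Of 15 tested leucine-rich-repeat genes 9 were higher in LPLC2 (60%, against 28.4% over all genes) and 3 in LC4 (20%, against 28.6%), with a median log2 fold change of 1.10. Several kekkon genes were among them: kek1 (9.44 ± 0.398 against 3.60 ± 0.845), kek2 (12 ± 1.04 against 3.18 ± 0.325), kek3 (0.883 ± 0.152 against 0.0126 ± 0.0118) and kek6 (4.99 ± 0.403 against 1.24 ± 0.207), while kek5 was higher in LC4 (0.366 ± 0.0904 against 1.20 ± 0.389). trn stood at 3.02 ± 0.447 against 0.955 ± 0.368 (log2FC 1.46 ± 0.17, adjusted p = 7.35e-07). Its relative caps was at 5.74 ± 0.414 against 3.48 ± 1.23 and Tl, the founding Toll receptor gene, at 4.21 ± 0.754 against 0.648 ± 0.118. The exception in size was Con, which encodes the adhesion protein Connectin, between 3.93 and 7.03 (median 5.04) in LC4 and between 0.0633 and 0.125 (median 0.0911) in LPLC2 (log2FC -5.85 ± 0.19, adjusted p = 3.15e-14). Toll-6 was not called (5.18 ± 0.321 against 4.81 ± 0.612).

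Of 8 tested cadherin genes 5 were higher in LPLC2 (62.5%, against 28.4% over all genes) and 2 in LC4 (median log2FC 0.40). At 25%, the LC4 share was near the 28.6% over all genes. Cad88C was seen with 221 UMIs in LPLC2 and 2 UMIs in LC4, a ratio of levels of 38.2 with an exact 95% Poisson interval of 10.5 to 318 that covers counting error only, and was the LPLC2 member with the largest change. stan, the flamingo cadherin gene, was the LC4 member (0.00888 ± 0.00637 against 0.150 ± 0.0824, log2FC -3.65 ± 0.38, adjusted p = 2.89e-07). CadN, the main neuronal cadherin, differed by 1.42-fold (13 ± 0.311 against 8.85 ± 0.583). Cad87A stood at 1.15 ± 0.514 against 1.71 ± 0.662 (log2FC -0.75 ± 0.24, adjusted p = 0.0147) with crosses that overlapped, and this call was lost under DESeq2 (adjusted p = 0.0974). Among genes for synaptic organizers, Nlg2, a neuroligin gene, was 10.3 ± 0.590 against 2.35 ± 0.266 (log2FC 2.06 ± 0.07, adjusted p = 9.00e-14) and the teneurin gene Ten-m 4.33 ± 0.291 against 1.14 ± 0.352 (log2FC 1.83 ± 0.13, adjusted p = 1.35e-09). Nrx-1 was 6.64 ± 0.279 against 6.98 ± 0.552 and not called.

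Of 22 tested guidance genes 12 were higher in LPLC2 (54.5%, against 28.4% over all genes) and 7 in LC4 (median log2FC 0.34). The LC4 share, 31.8%, was near the 28.6% over all genes. Receptors for Wnt ligands stood on the LPLC2 side, among them fz2 at 11.7 ± 0.800 against 1.71 ± 0.228 (log2FC 2.72 ± 0.09, adjusted p = 2.11e-14) and fz at 3.38 ± 0.576 against 0.765 ± 0.176 (log2FC 2.05 ± 0.14, adjusted p = 1.17e-09). With them stood drl at 5.46 ± 0.697 against 1.21 ± 0.222 (log2FC 2.15 ± 0.12, adjusted p = 5.16e-11) and Drl-2 at 2.58 ± 0.218 against 0.552 ± 0.154 (log2FC 2.24 ± 0.11, adjusted p = 1.01e-11). The remaining ones, arr (1.11 ± 0.187 against 0.356 ± 0.0729) and dnt (0.589 ± 0.119 against 0.215 ± 0.0528), were also called higher in LPLC2, and fz3 was not called. The Netrin receptor gene fra, which mediates attraction, was higher in LPLC2 (2.0 ± 0.194 against 0.567 ± 0.185). unc-5, the Netrin receptor gene for repulsion, was higher in LC4 (1.03 ± 0.188 against 2.54 ± 0.334), as was the ligand gene NetB (0.0952 ± 0.00998 against 0.715 ± 0.357). sli, the ligand of Robo receptors, was higher in LC4 (1.36 ± 0.0986 against 3.61 ± 1.01) and robo1 higher in LPLC2 (1.42 ± 0.0368 against 0.844 ± 0.218). Sema2b was 0.0471 ± 0.0121 against 0.650 ± 0.0761 and Sema1a 14.5 ± 0.394 against 22.1 ± 4.18. Eph (1.79 ± 0.0990 against 1.59 ± 0.134) and PlexB (1.63 ± 0.115 against 1.30 ± 0.310) were not called, PlexB passing with strain as a block (adjusted p = 0.0358).

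Genes that modify the cell surface by sialic acid or heparan sulfate were called in 12 of 13 tested cases (92.3%, against 56.9% over all genes). Of these, 5 were higher in LPLC2 (38.5%, against 28.4%) and 7 in LC4 (53.8%, against 28.6%), with a list median log2FC of -0.37. dally, a glypican that carries heparan sulfate, was between 1.68 and 3.40 (median 2.96) in LC4 and between 0.0410 and 0.109 (median 0.0689) in LPLC2 (log2FC -5.37 ± 0.18, adjusted p = 4.50e-14). sfl and Hs6st, enzymes that sulfate these chains, were higher in LC4 (0.401 ± 0.0423 against 1.49 ± 0.194 and 0.865 ± 0.220 against 1.72 ± 0.426). Sulf1, which removes sulfate, was higher in LPLC2 (5.0 ± 0.157 against 2.72 ± 0.742). SiaT, the sialyltransferase gene, stood at 2.61 ± 0.535 against 1.63 ± 0.555 (log2FC 0.72 ± 0.20, adjusted p = 0.00526). The groups overlapped, since the older LC4 crosses (1.94 to 2.33), DGRP 399 and 555 among them, lay near the younger LPLC2 crosses (2.0 to 2.31). Among tetraspanin genes Tsp42Eo showed the largest change (0.675 ± 0.129 against 4.90 ± 0.584, log2FC -2.90 ± 0.12, adjusted p = 1.39e-12). Tsp42Ef showed a small one (0.777 ± 0.141 against 0.932 ± 0.0901, log2FC -0.31 ± 0.12, adjusted p = 0.0424), a call that was lost in 14 of 23 alternative fits. Leaving out LC4 cross 535, 555 or 799 or LPLC2 cross 555, 730, 799 or 805 gave it adjusted p-values of 0.0530 to 0.114.

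Of the genes that the study names with these data, 3 not described so far were also called. CG30419 was 4.94 ± 0.353 against 0.385 ± 0.130 (log2FC 3.62 ± 0.15, adjusted p = 9.15e-13). mbl, the muscleblind splicing factor gene, was 12.9 ± 0.893 against 6.60 ± 0.885 (log2FC 0.90 ± 0.08, adjusted p = 5.37e-08) and CG44422 3.42 ± 0.151 against 1.98 ± 0.485 (log2FC 0.78 ± 0.13, adjusted p = 5.27e-05). For mbl the study reports a low and even signal across LPLC2 neurons by in situ hybridization. It leaves this discrepancy with the single-cell counts unexplained.

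Both types are cholinergic, and the genes for acetylcholine release did not pass the test between them. VAChT, the vesicular transporter gene, was 3.53 ± 0.300 against 3.47 ± 0.340 (adjusted p = 0.909). ChAT, the synthetic enzyme gene, was 0.673 ± 0.0846 against 0.815 ± 0.145 (adjusted p = 0.0796), passing with strain as a block (adjusted p = 0.00782). The genes for receiving transmitters did differ. Of 11 tested acetylcholine receptor genes 8 were higher in LPLC2 (72.7%, against 28.4% over all genes), with a list median log2FC of 0.61. The 2 higher in LC4 (18.2%, against 28.6%) were a pair of abundant nicotinic subunits. nAChRalpha5 was between 74.8 and 90.6 (median 86.7) in LC4 and between 18.6 and 26.1 (median 20.8) in LPLC2 (log2FC -2.03 ± 0.10, adjusted p = 6.11e-12). nAChRalpha7 was between 57.9 and 101.9 (median 69.6) in LC4 and between 20.1 and 25.0 (median 23.0) in LPLC2 (log2FC -1.74 ± 0.11, adjusted p = 5.05e-10). nAChRalpha1 (22.6 ± 2.83 against 13.7 ± 1.96), nAChRalpha3 (5.40 ± 0.645 against 2.33 ± 0.598), nAChRalpha6 (8.73 ± 0.771 against 2.65 ± 1.33) and nAChRbeta1 (14.9 ± 0.907 against 10.0 ± 0.438) were higher in LPLC2.

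Of 5 tested GABA receptor genes 2 were higher in LC4 and 2 in LPLC2 (40% each, against 28.6% and 28.4% over all genes). Rdl, the main ionotropic GABA receptor gene, was between 171 and 196 (median 179) in LC4 and between 53.2 and 55.4 (median 54.4) in LPLC2, narrow within each type and 3.46-fold apart (log2FC -1.79 ± 0.05, adjusted p = 6.14e-15; -1.80 without LC4 crosses 399 and 555). GABA-B-R1 was also higher in LC4 (2.61 ± 0.127 against 6.89 ± 1.20). CG8916 (0.0806 ± 0.0240 against 0.0467 ± 0.0345) and GABA-B-R2 were called higher in LPLC2 and Lcch3 was not called (1.10 ± 0.0493 against 0.998 ± 0.125). The CG8916 call was lost in the older crosses alone (log2FC 0.71, adjusted p = 0.200). Of 8 tested glutamate receptor genes 5 were higher in LPLC2 (62.5%, against 28.4% over all genes) and 2 in LC4 (median log2FC 0.66). At 25%, their LC4 share was near the 28.6% over all genes. GluClalpha, the glutamate-gated chloride channel gene, was higher in LPLC2 (17.4 ± 1.09 against 11 ± 0.715, log2FC 0.61 ± 0.07, adjusted p = 1.19e-06). Other glutamate receptor genes were divided, with GluRIA (0.672 ± 0.124 against 1.44 ± 0.519) and GluRIB (2.28 ± 0.336 against 4.30 ± 1.42) higher in LC4 and Nmdar2 (1.44 ± 0.105 against 0.589 ± 0.130) and the metabotropic mGluR (1.99 ± 0.144 against 1.21 ± 0.230) higher in LPLC2.

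Receptors for biogenic amines were nearly all called (85.7%, against 56.9% over all genes), 7 of 14 tested higher in LPLC2 and 5 in LC4. Of these 12, 11 changed by 2-fold or more, a call made in 15.6% of all tested genes (median log2FC of the list 0.58). On the LPLC2 side stood Octalpha2R, Dop1R2 (2.83 ± 0.633 against 0.190 ± 0.180), Dop1R1 (1.14 ± 0.385 against 0.0763 ± 0.0296, log2FC 3.79 ± 0.27, adjusted p = 1.39e-09), 5-HT2B (1.55 ± 0.189 against 0.199 ± 0.0812, log2FC 2.71 ± 0.14, adjusted p = 1.37e-11) and 5-HT7 (0.337 ± 0.0549 against 0.0593 ± 0.0246). On the LC4 side stood the octopamine receptor genes Oamb (0.355 ± 0.0959 against 2.24 ± 0.127, log2FC -2.73 ± 0.14, adjusted p = 2.49e-11), Octbeta1R (0.124 ± 0.0378 against 0.307 ± 0.0827) and Octbeta2R (1.19 ± 0.156 against 2.44 ± 0.670) and the tyramine receptor genes Oct-TyrR (0.0527 ± 0.0278 against 0.338 ± 0.122) and TyrR (0.281 ± 0.0853 against 0.759 ± 0.186). Octopamine receptor genes were thus called in both directions. DopEcR was 5.09 ± 0.226 against 4.48 ± 1.99 and not called, its LC4 crosses spreading from 2.54 to 7.39. It was called higher in LPLC2 in the younger crosses alone (log2FC 0.76, adjusted p = 1.36e-05) and higher in LC4 in the older crosses alone (log2FC -0.28, adjusted p = 0.0403). The older LC4 crosses include the small crosses DGRP 399 and 555, so this difference cannot be told apart from theirs.

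Of 22 tested neuropeptide receptor genes 11 were higher in LC4 (50%, against 28.6% over all genes) and 6 in LPLC2 (median log2FC -0.29). The LPLC2 share, 27.3%, was near the 28.4% over all genes. LC4 had Dh31-R (0.0647 ± 0.0206 against 1.59 ± 0.738, log2FC -4.56 ± 0.26, adjusted p = 8.49e-11), the neuropeptide F receptor gene NPFR (0.0928 ± 0.0452 against 0.943 ± 0.231) and, at low levels, AstA-R2, with 1 UMI in LPLC2 and 279 in LC4 (ratio of LPLC2 to LC4 levels 0.00124, exact 95% Poisson interval 3.13e-05 to 0.00697), and FMRFaR, with 3 and 170 UMIs (0.00611, 0.00125 to 0.0182). LPLC2 had both allatostatin C receptor genes, AstC-R1 (1.32 ± 0.145 against 0.110 ± 0.0332, log2FC 3.44 ± 0.14, adjusted p = 7.40e-13) and AstC-R2 (4.98 ± 0.420 against 1.21 ± 0.406), Dh44-R2 (1.33 ± 0.10 against 0.153 ± 0.0381) and MsR1 (0.398 ± 0.175 against 0.0352 ± 0.0122). Among the peptide genes themselves levels were low. AstC was seen in LPLC2 at 0.105 ± 0.0337 against 0.00725 ± 0.0113, with 4 UMIs in all LC4 cells together. Nplp1 was higher in LC4 (0.130 ± 0.0293 against 0.327 ± 0.126, log2FC -1.53 ± 0.20, adjusted p = 4.25e-06), but not in the older crosses alone (log2FC -0.71, adjusted p = 0.0529). Dh31 was 0.138 ± 0.0781 against 0.232 ± 0.107 and not called, passing with strain as a block (adjusted p = 5.66e-04).

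Ion channel genes showed a few large differences among many small ones. Of 16 tested potassium and HCN channel genes 8 were higher in LC4 (50%, against 28.6% over all genes) and 2 in LPLC2 (12.5%, against 28.4%), with a median log2FC of -0.13. eag was 0.175 ± 0.0370 against 3.08 ± 0.440 (log2FC -4.18 ± 0.14, adjusted p = 5.40e-14) and KCNQ 0.126 ± 0.0130 against 0.691 ± 0.173, both LC4 genes. SLO2 (5.67 ± 0.541 against 0.980 ± 0.113, log2FC 2.52 ± 0.10, adjusted p = 2.49e-13) and Elk (0.498 ± 0.0418 against 0.0782 ± 0.0342) were the LPLC2 genes. Sh, which encodes the Shaker channel, differed by 1.44-fold (38.5 ± 2.05 against 53.3 ± 7.16). slo (27.7 ± 2.72 against 27.4 ± 4.16) and SK (9.51 ± 1.03 against 9.63 ± 1.65) were not called. Ca-alpha1T, the T-type calcium channel gene, was higher in LPLC2 (4.20 ± 0.396 against 0.417 ± 0.253, log2FC 3.47 ± 0.19, adjusted p = 3.34e-11). The sodium channel gene para was higher in LC4 by 1.35-fold and cac, the presynaptic calcium channel gene, higher in LPLC2 by 1.30-fold. shakB, the innexin of the GF's electrical synapses, was between 78.5 and 89.5 (median 84.5) in LPLC2 and between 76.0 and 105 (median 85.3) in LC4. It did not differ beyond the spread of the crosses (log2FC -0.10 ± 0.08, adjusted p = 0.318). ogre, another innexin gene, was the family's called member (0.0449 ± 0.00940 against 0.174 ± 0.143, log2FC -2.36 ± 0.33, adjusted p = 1.01e-05), a call lost in the older crosses alone (log2FC -1.25, adjusted p = 0.0554).

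Genes of synaptic vesicles and active zones differed by small factors. Of 26 tested, 10 were higher in LPLC2 and 8 in LC4, but only 1 by 2-fold or more, Sytbeta (0.646 ± 0.249 against 0.0531 ± 0.0264). The share higher in LPLC2 was 38.5%, against 28.4% over all genes, and that higher in LC4, 30.8%, was near the 28.6%. Over all tested genes 15.6% were called with 2-fold or more. Frq1, a frequenin calcium sensor gene, was next towards LC4 (12.7 ± 0.974 against 23.6 ± 2.28) and Snap25 towards LPLC2 (11 ± 0.315 against 6.51 ± 0.679). brp, the active zone scaffold gene, was 12.1 ± 0.377 against 9.53 ± 0.686, Syt1 13.5 ± 0.488 against 15.9 ± 2.15 and nSyb 10.1 ± 0.478 against 10.3 ± 0.595, the last not called. The Syt1 call was lost among cells with no roX1 or roX2 UMI (log2FC -0.18, adjusted p = 0.0840).

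Transcription factor genes outside the annotation set were called in both directions. Among other homeobox genes 5 of 11 tested were higher in LPLC2 (45.5%, against 28.4% over all genes) and 4 in LC4 (36.4%, against 28.6%). zfh2 was an LC4 gene (0.0593 ± 0.0159 against 2.59 ± 0.636, log2FC -5.50 ± 0.17, adjusted p = 1.64e-14) and slou an LPLC2 gene with 5 UMIs in all LC4 cells together (0.354 ± 0.0866 against 0.00444 ± 0.00459). toy, a Pax6 gene, stood at 6.62 ± 0.347 against 2.87 ± 0.419. Of 16 tested genes in a list of other transcription factors 10 were higher in LPLC2 (62.5%) and 3 in LC4 (18.8%), with a median log2FC of 0.91. pros, the homeodomain gene prospero, was between 89.3 and 101 (median 97.0) in LPLC2 and between 17.1 and 21.7 (median 19.2) in LC4 (log2FC 2.25 ± 0.06, adjusted p = 3.57e-15). mamo (37.8 ± 4.56 against 10.6 ± 1.97, log2FC 1.77 ± 0.10, adjusted p = 6.23e-11), the bric-a-brac genes bab1 (0.945 ± 0.105 against 0.188 ± 0.0308) and bab2 (2.45 ± 0.217 against 0.561 ± 0.171) and fru (2.19 ± 0.789 against 0.339 ± 0.232, log2FC 3.09 ± 0.35, adjusted p = 6.67e-07) were also higher in LPLC2. erm (0.00176 ± 0.00164 against 0.266 ± 0.0883) and klu (0.0317 ± 0.0137 against 1.77 ± 0.714, log2FC -5.91 ± 0.26, adjusted p = 1.58e-12) were higher in LC4. jim (31.3 ± 2.66 against 32.9 ± 4.13) and the temporal factor gene chinmo (7.95 ± 0.493 against 6.71 ± 1.30) were not called, chinmo passing with strain as a block (adjusted p = 0.0230).

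Of 14 tested genes of the ecdysone response, the steroid cascade that times pupal development, 3 were higher in LPLC2, 4 higher in LC4 and 7 not called, among the last the receptor gene EcR (2.99 ± 0.240 against 2.74 ± 0.204). The 50% called was near the 56.9% over all genes. Towards LC4 the largest changes were in br, Eip93F (0.0625 ± 0.0183 against 1.33 ± 0.247, log2FC -4.44 ± 0.16, adjusted p = 7.24e-14) and ftz-f1 (0.153 ± 0.142 against 0.653 ± 0.498, log2FC -1.85 ± 0.59, adjusted p = 0.0123). Towards LPLC2 the largest was in Eip63E (6.67 ± 1.02 against 2.33 ± 0.404). The ftz-f1 call was lost without LC4 cross 535 (log2 fold change -1.30, adjusted p = 0.0906), and without LPLC2 cross 555 its log2 fold change was -2.52. The RNA-binding genes Imp and Syp, whose opposing levels mark time in neural lineages, were divided, Imp higher in LPLC2 (1.96 ± 0.332 against 1.21 ± 0.267) and Syp higher in LC4 (26.0 ± 1.6 against 63.3 ± 7.36, log2FC -1.34 ± 0.07, adjusted p = 7.42e-12). The share of cells ran the other way for Imp. Before thinning it had a UMI in 45.8% of LPLC2 cells, which were the shallower, and in 73% of LC4 cells. Of 14 tested genes in a list of neuronal RNA-binding proteins 8 were higher in LPLC2 (57.1%, against 28.4% over all genes) and 4 in LC4. The share higher in LC4, 28.6%, was that over all genes, and 2 genes were not called (median log2FC 0.22). Higher in LPLC2 were fne (105 ± 4.53 against 34 ± 5.15, log2FC 1.56 ± 0.08, adjusted p = 7.24e-12), Rbfox1 (28.2 ± 5.17 against 7.51 ± 0.594, log2FC 1.86 ± 0.09, adjusted p = 7.40e-12), elav (5.38 ± 0.448 against 3.73 ± 0.237) and bru1 (0.629 ± 0.0433 against 0.0986 ± 0.0471). Higher in LC4 were bru3, a relative of bru1 (0.0286 ± 0.0133 against 0.109 ± 0.0453, log2FC -2.13 ± 0.31, adjusted p = 1.43e-05), and pum, a translational repressor gene (18.7 ± 0.816 against 29.8 ± 2.72).

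A different kind of difference, small and one-directional, ran through genes of basal metabolism. Of 62 tested nuclear genes for oxidative phosphorylation 57 were higher in LC4, 1 in LPLC2 and 4 were not called, a share of 91.9% against 28.6% over all genes. Their median log2 fold change was -0.60 and their summed level 180.1 ± 13.1 UMIs per 10000 in LPLC2 and 274 ± 14.5 in LC4. ATPsynF (4.59 ± 0.444 against 10.2 ± 0.884), COX8 (4.19 ± 0.332 against 9.26 ± 0.836) and ND-30 (0.716 ± 0.111 against 1.63 ± 0.354) had the largest changes. ND-49 was the exception (1.03 ± 0.0937 against 0.815 ± 0.151), a call lost in 8 of 23 alternative fits, among them those without LC4 cross 730 or 799 or LPLC2 cross 535 or 555 (adjusted p of 0.0509 to 0.0771). Proteasome genes showed the same lean, 25 of 33 higher in LC4 and 2 in LPLC2 (median -0.43), as did cytosolic ribosomal protein genes, 45 of 84 against 7 (median -0.15), and tubulin genes, 4 of 5 against 1. The shares higher in LC4 were 75.8%, 53.6% and 80%, against 28.6% over all genes. Those higher in LPLC2 were 6.06%, 8.33% and 20%, against 28.4%. The genes of the mitochondrial genome did not share this lean, with 13 of 15 not called (13.3% called, against 56.9% over all genes). LC4 cells also had more UMIs per cell, 26391 ± 3971 against 18379 ± 1526. With cells of both types thinned to 10000 UMIs and matched in number within strains, all 62 oxidative phosphorylation genes could still be tested. Of these 50 were higher in LC4, none in LPLC2, and their median log2 fold change was -0.57. Thinning at random keeps each gene's expected share of a cell's UMIs, so a similar median follows largely from the method. Whether the lean goes with the UMIs per cell was not tested. In the thinned fit the lean of ribosomal protein genes was weaker, with 25 of 84 higher in LC4 and 6 in LPLC2. Proteasome genes had 16 of 31 higher in LC4 and 0 in LPLC2, and all 4 tubulin genes tested were higher in LC4. Over the 4206 genes tested in that fit, 931 were higher in LPLC2 and 978 in LC4.

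**Figure D4:**
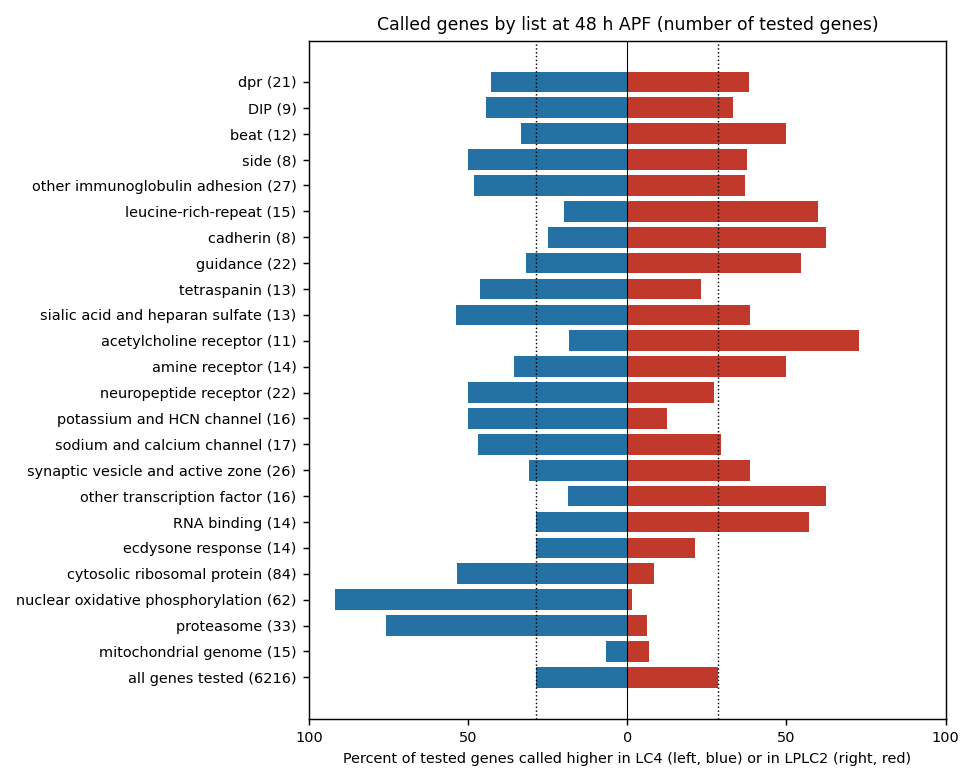
Percent of the tested genes of each list called higher in LPLC2 (to the right, red) or higher in LC4 (to the left, blue) at 48 h APF, with the number of tested genes in parentheses and dotted lines at the shares over all 6216 tested genes, 28.4% and 28.6%. Nuclear oxidative phosphorylation reaches 91.9% on the LC4 side with 1.61% on the other, while the Dpr, DIP, Beat and Side families extend past the dotted lines on both sides.

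Most markers of other cells were at or near 0 in both types. Of 8 glial markers only nrv2 was tested, at 1.86 ± 0.228 against 0.203 ± 0.0656, with repo at 0 in every LC4 cross and no higher than 0.00216 in LPLC2. The summed level of the glial list was between 1.65 and 2.22 in LPLC2 and between 0.199 and 0.427 in LC4, nearly all of it nrv2. Of 5 photoreceptor markers only norpA, the phospholipase C gene of phototransduction, was tested (8.58 ± 0.843 against 1.38 ± 0.452, log2FC 2.51 ± 0.15, adjusted p = 9.56e-11). ninaE was at 0 in every LC4 cross and no higher than 0.00222 in LPLC2, and trp and ninaC were at or under 0.0496 and 0.0400 in every cross. The list's sum, between 7.73 and 9.81 in LPLC2 and between 0.569 and 1.85 in LC4, was thus mostly norpA, at 7.72 to 9.77 and 0.540 to 1.83. Rh7, a rhodopsin gene expressed outside photoreceptors, was likewise higher in LPLC2 (1.17 ± 0.0826 against 0.0642 ± 0.0417, log2FC 4.10 ± 0.20, adjusted p = 1.05e-11). Progenitor, hemocyte and other optic lobe neuron markers did not reach the tested set, with summed levels at or under 0.0762, 0.00216 and 0.0146 in every cross, and VGlut and Gad1 were at or under 0.00639 and 0.00372. VGAT, the vesicular GABA transporter gene, was between 0.127 and 0.216 in LPLC2 and between 0.0850 and 0.284 in LC4.

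LPLC1, the other sorted type, held 690 cells in the same library and gave another set of levels for these genes, as a description. Some of the LC4 genes were not absent from VPNs other than LC4: side stood at 23.2 ± 2.59 in LPLC1, Con at 6.04 ± 0.674, CG33543 at 8.91 ± 1.35 and eag at 4.44 ± 0.388, all closer to LC4 than to LPLC2. Others were nearer to LPLC2, as side-II at 0.0619 ± 0.0660, DIP-beta at 0.319 ± 0.169, ct at 0.0421 ± 0.0178 and Rdl at 57.4 ± 4.08. Of the LPLC2 genes, side-VI (7.34 ± 0.376), beat-VI (5.15 ± 0.588) and dpr9 (9.26 ± 0.809) were shared with LPLC1, whereas DIP-eta (0.0685 ± 0.0252), Octalpha2R (1.61 ± 0.598) and pros (24.1 ± 2.08) were far lower in LPLC1 than in LPLC2.

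The same contrast was made at later stages. At 72 h APF, 4159 of 6777 tested genes were called (61.4%) and at 96 h APF 2864 of 5542 (51.7%), from 6 LPLC2 and 4 LC4 crosses at each. Of the 3540 genes called at 48 h APF the 72 h APF test covered 3446. Of those, 2203 were called in the same direction (63.9%), 282 in the opposite direction and 961 not called. The 96 h APF test covered 3102 of them, with 1377 called in the same direction (44.4%), 476 in the opposite direction and 1249 not called. Of the genes with 2-fold or more at 48 h APF, 711 of 899 kept their direction and call at 72 h APF (79.1%) and 501 of 715 at 96 h APF (70.1%). A difference between stages in the LPLC2 to LC4 ratio was called in 2268 of 6891 genes for 48 against 72 h APF (32.9%) and in 2662 for 48 against 96 h APF (38.6%). Each stage was its own library and lane, the 48 h APF library was sequenced with a different read length, and the LC4 crosses were not the same, so stage and library cannot be told apart.

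Several genes changed sides. dpr13, 6.82 ± 0.804 against 1.68 ± 0.491 at 48 h APF, stood at 4.44 ± 0.274 in LPLC2 and 8.03 ± 0.501 in LC4 at 72 h APF and at 4.02 ± 0.279 and 7.91 ± 0.867 at 96 h APF. It was an LPLC2 gene at first and an LC4 gene later (log2 fold changes 2.05, -0.91 and -1.13; difference of 48 from 72 h APF 2.97 ± 0.16, adjusted p = 1.80e-16). SiaT followed, with log2 fold changes of 0.72, -0.87 and -2.73 and 10.5 ± 0.62 in LC4 at 96 h APF against 1.75 ± 0.389 in LPLC2. In the other direction, DIP-beta went from -6.03 to 2.63, with LC4 at 3.15 ± 0.546 at 48 h APF and 0.0590 ± 0.0169 at 72 h APF. Fas2 went from -3.73 to 0.90 and 1.56, with LC4 at 0.247 ± 0.0607 at 72 h APF. Among receptors, TyrR (-1.56, 2.47 and 4.41), Octbeta2R (-1.06, 0.95 and 0.56), GluRIA (-1.04, 0.70 and 2.09) and GluRIB (-0.92, 0.59 and 1.43) changed from LC4 to LPLC2.

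In other genes the distance changed. Octalpha2R, the amine receptor gene with the largest change at 48 h APF, stood at 31.6 ± 4.65, 7.03 ± 1.03 and 2.38 ± 0.728 in LPLC2 at the 3 stages, with log2 fold changes of 4.96, 2.25 and 0.98 (difference of 48 from 96 h APF 3.99 ± 0.25, adjusted p = 3.61e-15). side-V narrowed likewise, from 3.86 to 0.96 and 0.55. dpr16 (2.43 and 5.06 at 48 and 72 h APF), dpr17 (2.73 and 4.81) and 5-HT2B (2.71 and 7.32) widened. At 72 h APF these genes stood at 0.0455 ± 0.0118, 0.0706 ± 0.0357 and 0.0115 ± 0.00448 in LC4 and at 1.62 ± 0.232, 1.80 ± 0.188 and 1.83 ± 0.239 in LPLC2, and at 96 h APF all LC4 cells together held 5, 4 and 2 of their UMIs. DIP-epsilon, the dpr13 partner gene with a log2 fold change of 0.87 at 48 h APF, reached 6.73 at 72 h APF, at 0.296 ± 0.0631 in LPLC2 and 0.00288 ± 0.00157 in LC4, where 4 UMIs were seen in all cells together. sdk, not called at 48 h APF (-0.16, -0.99, -3.13), and Cad87A (-0.75, -3.36, -4.06) diverged towards LC4, with LPLC2 at 0.512 ± 0.198 and 0.109 ± 0.0330 at 96 h APF. In all 16 of these genes the difference of the 48 h APF ratio from that at 72 h APF passed the test (adjusted p of 0.00236 or lower), and in the 15 of them tested at 96 h APF so did the difference from 96 h APF (adjusted p of 1.53e-04 or lower). These genes are examples chosen for such a change, so their passing adds nothing to the shares over all genes.

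**Figure D5:**
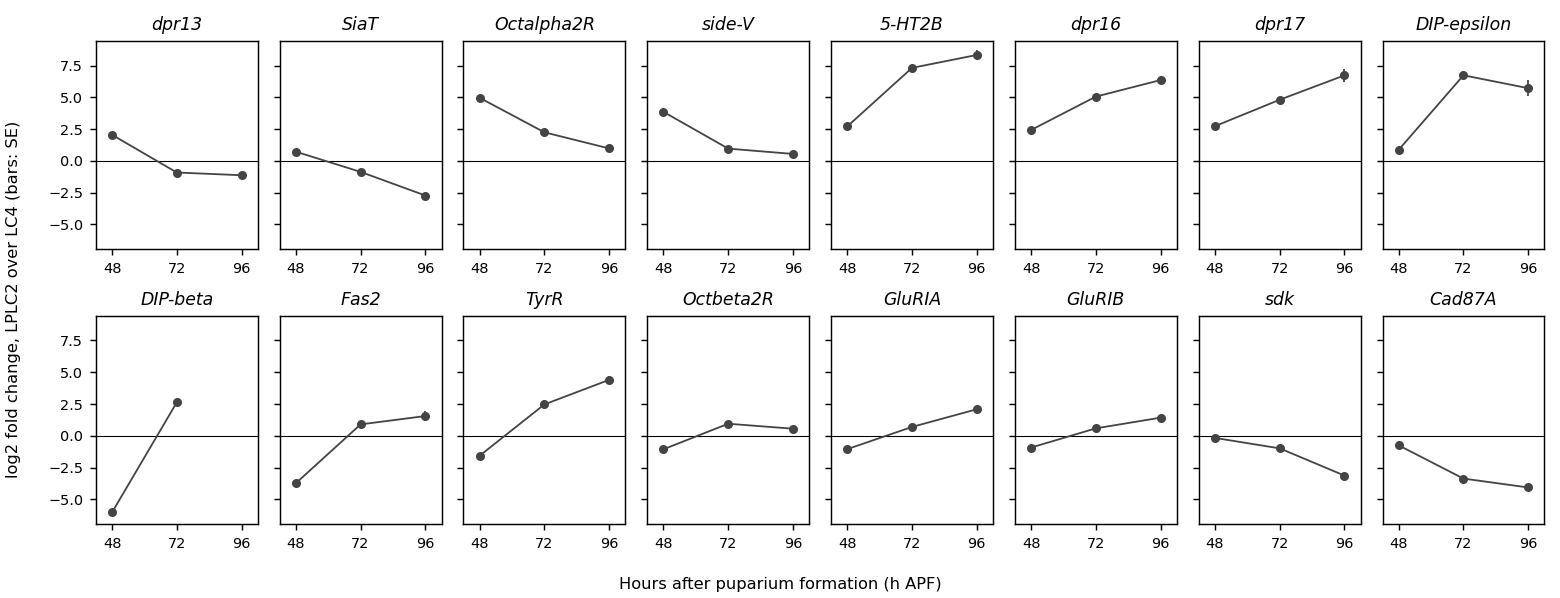
Log2 fold change of LPLC2 over LC4 (y axis, bars SE, some smaller than the points) at 48, 72 and 96 h APF (x axis) for 16 genes, with a line at 0. dpr13 and SiaT start above the line and end below it, DIP-beta, Fas2, TyrR, Octbeta2R, GluRIA and GluRIB cross it upwards, Octalpha2R and side-V come down towards it, and DIP-beta has no tested value at 96 h APF. The 96 h APF points of 5-HT2B and DIP-epsilon rest on 2 UMIs and 1 UMI in LC4.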

How the data were processed

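Single-cell RNA of sorted visual projection neurons was measured with 10x Chromium 3′ chemistry, with 1 library per stage (48, 72 and 96 h APF). The authors aligned reads with Cell Ranger to the dm6 genome and deposited UMI counts per gene and cell barcode. They assigned barcodes to crosses by genotype with demuxlet, which also removed doublets between crosses, and annotated cell types in Seurat 5.0.1. They also deposited the percent of mitochondrial UMIs per cell.

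Here the deposited counts of cells named LPLC2 or LC4 were summed per type and cross, for crosses with at least 10 cells, 6 against 6 at 48 h APF. No doublet caller was run, and of the final barcodes of the 48 h APF library 2 also occurred at 72 h APF. Genes passing filterByExpr were tested with edgeR 4.0.16 (R 4.3.3; TMM, quasi-likelihood, Benjamini-Hochberg adjusted p under 0.05). A positive log2 fold change means higher in LPLC2, and ± after a fold change is its standard error. Gene positions came from the Ensembl BDGP6.54 annotation of the same assembly, in which 17083 of 17824 symbols were found. Crosses are pools of animals, so p-values measure the spread between such pools.

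Strains pair the types by design, since the same chromosome 3 and staging window was used for both. Deviations of LPLC2 and LC4 sums of the same strain correlated at r of 0.0685 to 0.254, the highest with the same strain in 4 of 6 strains. The strain block was an alternative, as the study's methods use none. Other alternatives were DESeq2 1.42.0, its size factors, no filter on low counts, leaving out each cross, the crosses with fewer than 30 cells or cells with 3 or more UMIs of the other type's markers, the study's stated filter (10000 to 50000 UMIs, at most 10% mitochondrial) and thinning to 10000 UMIs with equal numbers of cells. Further ones, the older crosses only, the younger crosses only and cells with no roX1 or roX2 UMI, were chosen after seeing the data. Counts were simulated for 6216 genes with the depths of LPLC2 and LC4 at 48 h APF, with 50 genes changed at each fold. The test recovered 58% of genes changed 1.5-fold, 90% at 2-fold and 98% at 8-fold. In the data far more genes were called (56.9%), which changes the cut-off that the adjustment sets, so these shares describe the simulation only.

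The contrast, the lists of genes and the genes named were chosen with earlier results of these data known. The text names the 12 genes with the largest change in each direction among called genes at a level of at least 1 UMI per 10000 with no overlap of crosses, the most changed and the uncalled expressed members of each list, the genes the study names and the annotation factors. Further list members were named after their values were seen. A gene that the study calls stacl was not matched and is not analysed here. Intervals cover counting error only.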

Additional observations from a re-analysis of the deposited data

Results flagged for a closer look

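Among the 420 sets of 6 crosses whose levels at 48 h APF were examined, 34 had a cross that stood far from the other crosses by Dixon's criterion, where chance alone gives about 1 in 20. Levels are UMIs per 10000. LC4 cross 399 held 14 cells, of which 1 carried 3 or more UMIs of LPLC2 markers. LC4 cross 399 stood apart as the highest for Sox102F (0.229, nearest other cross 0.107), salr (0.254, nearest other cross 0.0869), DIP-eta (0.254, nearest other cross 0.130), dpr16 (1.09, nearest other cross 0.737), DIP-gamma (0.0762, nearest other cross 0.0149), beat-VI (1.07, nearest other cross 0.510), Drl-2 (0.838, nearest other cross 0.573), SK (12.9, nearest other cross 9.33), Ca-alpha1T (0.914, nearest other cross 0.387), brp (10.9, nearest other cross 9.46) and nrv2 (0.330, nearest other cross 0.204). LC4 cross 555 stood apart as the highest for beat-Ic (2.47, nearest other cross 1.6), side-IV (1.14, nearest other cross 0.669), kek5 (1.96, nearest other cross 1.17), Imp (1.74, nearest other cross 1.22) and CG8916 (0.114, nearest other cross 0.0508). LC4 cross 555 stood apart as the lowest for PlexB (0.682, nearest other cross 1.35) and ND-49 (0.512, nearest other cross 0.834). LC4 cross 535 stood apart as the lowest for plum (0.703, nearest other cross 0.939). LC4 cross 799 stood apart as the highest for Toll-6 (5.96, nearest other cross 4.82). LC4 cross 805 stood apart as the highest for CG14298 (0.0372, nearest other cross 0.0112). LPLC2 cross 399 stood apart as the highest for dpr11 (3.22, nearest other cross 2.79), robo1 (1.49, nearest other cross 1.43) and Dh31-R (0.105, nearest other cross 0.0647). LPLC2 cross 399 stood apart as the lowest for CG14298 (1.41, nearest other cross 1.68), dpr13 (5.29, nearest other cross 6.74) and sli (1.17, nearest other cross 1.36). LPLC2 cross 555 stood apart as the highest for ftz-f1 (0.419, nearest other cross 0.183). LPLC2 cross 535 stood apart as the highest for dpr12 (0.407, nearest other cross 0.318). LPLC2 cross 730 stood apart as the highest for acj6 (15.7, nearest other cross 14.3), Nlg2 (11.4, nearest other cross 10.3) and brp (12.8, nearest other cross 12). LPLC2 cross 799 stood apart as the highest for Hs6st (1.29, nearest other cross 0.904) and Rbfox1 (38.1, nearest other cross 28.3).

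The LPLC2 to LC4 ratio differed between stages, by a test of the difference itself, in 2268 genes for 48 against 72 h APF and in 2662 genes for 48 against 96 h APF. For the genes followed in the report, the log2 ratio at 48 h APF less that at 72 and at 96 h APF was as follows for those that were more LPLC2-sided at 48 h APF: dpr13 (2.97 and 3.19), SiaT (1.59 and 3.45), Octalpha2R (2.71 and 3.99), side-V (2.89 and 3.31), Cad87A (2.61 and 3.33) and sdk (0.82 and 2.98). For those that were more LC4-sided at 48 h APF it was, in the same order of stages, DIP-beta (-8.67 for 72 h APF alone), Fas2 (-4.62 and -5.27), Octbeta2R (-2.01 and -1.61), TyrR (-4.04 and -6.02), GluRIA (-1.75 and -3.14), GluRIB (-1.50 and -2.34), 5-HT2B (-4.60 and -5.75), dpr16 (-2.63 and -3.98), dpr17 (-2.08 and -4.07) and DIP-epsilon (-5.82 and -5.09). Stage and library cannot be told apart.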

How the results depend on the processing

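Against 3540 calls at 48 h APF, the same 6216 genes gave 3542 with DESeq2 size factors, 3421 with DESeq2 and 3569 with strain as replicate block, of which 3396 were shared with the fit without the block. The block turned DIP-alpha, sns, PlexB, ChAT, Dh31 and chinmo into calls and changed no other call among the 236 tested genes eligible for the text. Leaving out each cross in turn gave 3336 to 3574 calls, 1621 to 1768 higher in LPLC2, 1655 to 1827 higher in LC4 and 969 to 1054 with 2-fold or more. Without a filter on low counts 12515 genes were tested and those with 2-fold or more numbered 1761 instead of 970. With 678 cells thinned to 10000 UMIs and matched in number, 4206 genes could be tested, and 1909 were called, 931 higher in LPLC2, 978 higher in LC4 and 586 with 2-fold or more. Of the alternatives at 48 h APF this one had the fewest cells and the fewest tested genes. The older crosses alone gave 2634 calls (2437 shared), the younger 3088 (2890 shared) and cells with no roX UMI 2514 (2407 shared), in which LC4 crosses 399 and 555 dropped out. These 3 were chosen after seeing the data. The number of genes per cell kept its direction (30.48 genes more in LPLC2) but did not pass within strains (exact sign-flip p = 0.0625). The mitochondrial share turned from 0.1144 percentage points higher in LPLC2 to -0.127 among cells within the stated filter, neither passing the test (exact permutation p = 0.323 and 0.152). DopEcR, not called with all crosses, was called higher in LC4 in the older crosses alone (log2 fold change -0.28, adjusted p = 0.0403) and higher in LPLC2 in the younger alone (0.76, adjusted p = 1.36e-05), and the cause was not tested. Of the 236 genes, 203 had the same call in all alternatives, 13 lost it in some and 20 gained one. With 14 and 12 cells, LC4 crosses 399 and 555 limited what could be seen of low genes.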
